A study of Homo sapiens with 6 samples.

Results

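The 10 genes described here carry iron out of the cell, take it in, store it or sense it. They were *SLC40A1* (ferroportin), *TFRC* (the transferrin receptor), *SLC11A2*, *STEAP3*, the ferritin genes *FTH1* and *FTL*, *NCOA4*, *IREB2*, *ACO1* and *FBXL5*. They were taken by symbol from a table of 26485 gene names, and all 10 were present. All 10 also passed the filter on low counts, which kept 14877 genes. The genes were chosen by their role with the knockdown and control counts of these cultures known, *SLC40A1* for its low counts after knockdown. The differences of the members between the groups are therefore descriptions, and no p values are printed for them. Where a member is said to be called (adjusted p under 0.05 over all genes), this restates values already in view and is given as description only.

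Ferroportin is the only known exporter of iron from mammalian cells. Iron enters most cells on transferrin, through the transferrin receptor, is reduced in the endosome by STEAP3 and is passed to the cytosol by the divalent metal transporter encoded by *SLC11A2*. Surplus iron is held in ferritin, a shell of heavy (*FTH1*) and light (*FTL*) chains, and NCOA4 delivers ferritin to the lysosome for its release. The iron regulatory proteins, encoded by *ACO1* and *IREB2*, bind a hairpin called the iron-responsive element when iron is scarce. Binding in a 5′ untranslated region blocks translation, and binding in a 3′ untranslated region protects the mRNA from decay. FBXL5 is the iron-dependent ubiquitin ligase subunit that removes the protein made from *IREB2*.

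RNA-seq was performed on 3 cultures of HEK293, a line derived from human embryonic kidney, that had been transfected with a Smart Silencer against the long noncoding RNA *HSALNG0134318*, and on 3 control cultures of the same line. Such a silencer combines siRNAs with antisense oligonucleotides against the same RNA, and it was delivered by transient transfection. The controls are named NC in the sample descriptions and WT in the genotype field, and what they were transfected with is not named in the sources used here. *HSALNG0134318* is not listed in the table, so the labels could not be checked by the silenced transcript itself.

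Total counts per culture were between 13900965 and 16869948. Control replicate 2 stood apart from the other control cultures. The chi-square per gene was 26.5 between it and control replicate 1 and 28.1 between it and control replicate 3, against 9.95 between control replicates 1 and 3 and 1.95 to 6.50 among the knockdown cultures. Values of the members that rest on this culture are therefore also given without it. Leaving it out also raised the calls over all genes, from 690 lower and 804 higher to 1238 and 1274. Among markers of the kidney line, 7 of 8 passed the filter, with edgeR adjusted p between 0.138 and 0.967 and a summed level of 24540 to 30110 normalized counts in the knockdown cultures and 21430 to 28560 in the controls, and *PAX8* had between 2 and 6 counts per culture. The 8 erythroid markers summed to at most 9.18 normalized counts in any culture, with *HBB*, *HBG1* and *HBG2* at 0, and the 6 hepatocyte markers to at most 12.5, with *TTR* at 0. The 6 macrophage markers summed to 96.0 to 137 normalized counts in the knockdown cultures and 98.0 to 117 in the controls, mostly from *CD68*, with *CD163* at 0. The 6 markers of mature proximal tubule summed to 585 to 733 normalized counts in the knockdown cultures and 832 to 1213 in the controls. Of these, *SLC34A1* and *SLC22A6* had 0 to 2 counts, and *LRP2*, the megalin receptor, was lower after knockdown (log2 fold change -0.70, SE 0.15, edgeR adjusted p = 0.0125), while *CUBN* (0.07), *AQP1* (0.43) and *SLC5A2* (-0.12) were not called (edgeR adjusted p = 0.916, 0.397 and 0.903).

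The iron-responsive elements of the member mRNAs are shown because they are what the iron regulatory proteins read. The reference transcripts of 19061 genes (MANE Select, GENCODE on hg38) were searched on the transcript strand for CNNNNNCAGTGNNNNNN, with the 5 bases after the first C pairing with the last 5 bases, G-U pairs allowed. Such a match lay in the 5′ untranslated region of 19 genes (0.0997%) and in the 3′ untranslated region of 122 genes (0.64%). *FTH1*, *FTL* and *SLC40A1* had 1 match each in the 5′ untranslated region, and *TFRC* had 4 in the 3′ untranslated region, which did not overlap each other. Each is printed 5′ to 3′ on the transcript strand over 29 bases, with the bulged C and the loop in capitals.
SLC40A1 (chr2:189580661-189580689, minus strand): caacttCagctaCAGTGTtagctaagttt
FTH1 (chr11:61967574-61967602, minus strand): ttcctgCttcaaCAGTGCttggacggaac
FTL (chr19:48965335-48965363, plus strand): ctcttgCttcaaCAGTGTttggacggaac
TFRC (chr3:196050979-196051007, minus strand): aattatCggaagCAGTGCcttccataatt
TFRC (chr3:196050575-196050603, minus strand): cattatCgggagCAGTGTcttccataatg
TFRC (chr3:196050510-196050538, minus strand): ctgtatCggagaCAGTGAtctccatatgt
TFRC (chr3:196050463-196050491, minus strand): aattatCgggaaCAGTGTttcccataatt

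The match was present in 1 of 5 annotated coding transcripts of *SLC40A1*, 7 of 8 of *FTH1*, 1 of 1 of *FTL* and 10 of 11 of *TFRC*. With Watson-Crick pairs alone, *SLC40A1* and *TFRC* kept a match and the ferritins did not, because a G-U pair falls in their stem. None of 17 coding transcripts of *SLC11A2* held these letters, nor did the reference transcripts of *STEAP3*, *NCOA4*, *IREB2*, *ACO1* and *FBXL5*. The search asked for 5 unbroken pairs, so an element with an interrupted or bulged stem would be missed. A gene without a match may therefore still hold an element. Gene-level counts do not tell apart transcripts with and without an element.

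*SLC40A1*, the iron exporter, was the member that differed most. It lies on the minus strand of chr2:189560590-189583758 (hg38). Normalized counts, which are counts scaled to a common library size, were 130.1, 128 and 118 in knockdown replicates 1, 2 and 3 and 396, 376 and 342 in control replicates 1, 2 and 3. The highest knockdown culture was well below the lowest control, and the 3 cultures of each group lay close together. The means were 126 ± 6.49 and 371 ± 27.5 (SD, n = 3), so that the knockdown level was 33.8% of the control level. The log2 fold change was -1.56 (SE 0.13), and it stayed between -1.61 and -1.51 when any culture was left out.

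**Figure D1:**
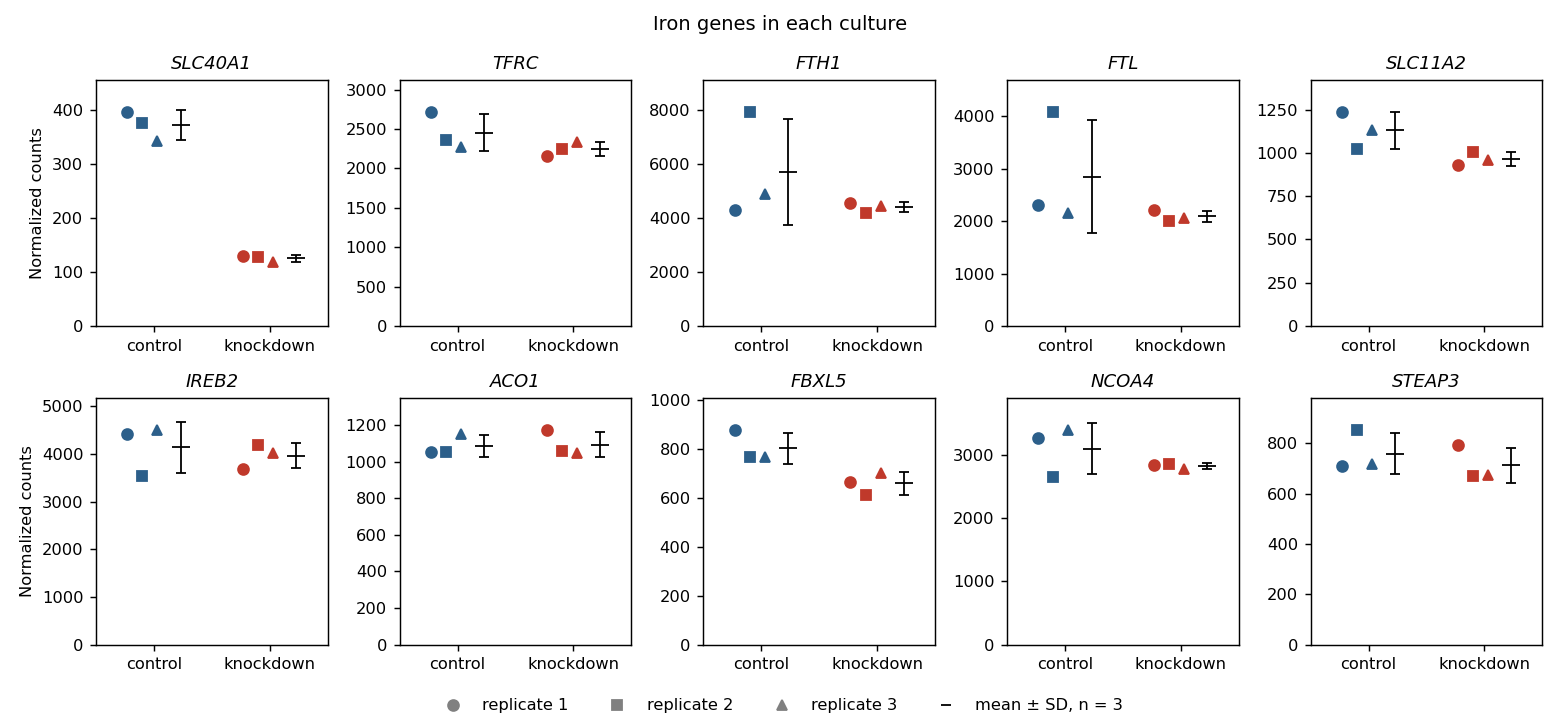
Normalized counts of the 10 members in each culture, with 1 point per culture and the group mean ± SD (n = 3) beside the points. *SLC40A1* is at 118 to 130.1 in the knockdown cultures and at 342 to 396 in the controls, while for *FTH1* and *FTL* a single control culture (control replicate 2, at 7949.6 and 4082) is far above the other 5.

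The transferrin receptor gene *TFRC* (chr3:196012511-196082153, minus strand) takes up transferrin-bound iron. Its normalized counts were 2156, 2248 and 2334 in the knockdown cultures and 2718, 2367 and 2275 in the controls. The groups overlapped, since control replicate 3 was below knockdown replicate 3. The means were 2246 ± 88.8 and 2453 ± 234 (SD, n = 3), with a log2 fold change of -0.13 (SE 0.09) that did not pass the threshold.

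*SLC11A2* (chr12:50979401-51028566, minus strand) encodes the transporter that carries ferrous iron out of the endosome. It had 927, 1007 and 961 normalized counts after knockdown and 1237, 1022 and 1133 in the controls. The groups did not overlap, but control replicate 2 was only just above the highest knockdown culture. The means were 965 ± 39.9 and 1131 ± 107 (SD, n = 3) and the log2 fold change was -0.23 (SE 0.10). The difference was not called with all cultures and was called without control replicate 2, at a log2 fold change of -0.30.

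*STEAP3* (chr2:119223831-119265652, plus strand), the endosomal ferrireductase, had 791, 669 and 675 normalized counts after knockdown and 710.2, 851 and 716 in the controls. Knockdown replicate 1 was above 2 of the controls, so the groups overlapped. The log2 fold change was -0.09 (SE 0.12), from means of 712 ± 69.0 and 759 ± 79.9 (SD, n = 3). Without control replicate 2 it was -0.002.

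The ferritin genes were the members whose difference rested most on a single culture. *FTH1* (chr11:61959718-61967634, minus strand) had 4577, 4201 and 4459 normalized counts after knockdown and 4296, 7949.6 and 4889 in control replicates 1, 2 and 3. *FTL* (chr19:48965309-48966879, plus strand) had 2205.5, 1995 and 2063 after knockdown and 2313, 4082 and 2152 in the same controls. In both genes control replicate 2 was far above the other 5 cultures, which lay close to each other whatever their group. It stood 1.73 times above the mean of the other controls for *FTH1* and 1.83 times for *FTL*. The control means were 5712 ± 1961 and 2849 ± 1071 (SD, n = 3), against knockdown means of 4412 ± 192 and 2088 ± 108. The log2 fold changes were -0.37 (SE 0.20) for *FTH1* and -0.45 (SE 0.22) for *FTL*, and neither was called. Without control replicate 2 they were -0.06 and -0.10.

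The ratio of heavy to light chain counts moved far less than either gene. It was 2.08, 2.11 and 2.16 in the knockdown cultures and 1.86, 1.95 and 2.27 in the controls, with means of 2.11 ± 0.0436 and 2.03 ± 0.218 (SD, n = 3). Control replicate 2, at 1.95, lay between the other controls, so the chains were raised there by a like factor. The ratio of *TFRC* to *SLC40A1* counts was 16.6, 17.5 and 19.8 in the knockdown cultures and 6.87, 6.30 and 6.66 in the controls. The groups did not overlap, which restates the low *SLC40A1* counts that the gene was chosen for, since *TFRC* differed little.

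Control replicate 2 also differed over the whole table. On the log2 scale with a pseudocount of 1, *FTH1* was 0.83 and *FTL* 0.93 above the mean of the other 5 cultures there, and 4.26% and 3.13% of genes deviated upward as far or further. Of the 14877 tested genes, 3.33% were at least 0.9 above the others in control replicate 2, against 0.632% to 1.12% in the remaining cultures. Across the 14450 genes with known length and GC content, its deviations followed GC content (Spearman's rho 0.363) and, inversely, transcript length (rho -0.295). The GC relation was 0.295 in knockdown replicate 1, -0.301 in control replicate 1 and -0.394 in control replicate 3. Genes are not independent replicates, so these correlations are descriptions. With each library adjusted for its trends with GC content and length, the log2 fold change of *FTL* was -0.37 and passed the threshold. The part of composition or RNA quality in the ferritin values was not tested.

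**Figure D2:**
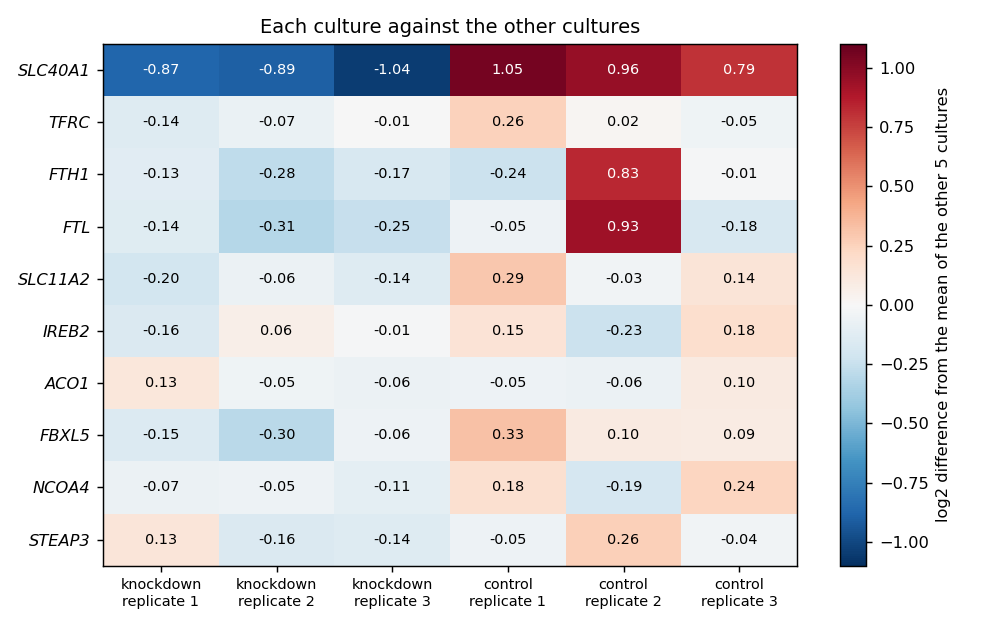
Deviation of each member in each culture from the mean of the other 5 cultures, on the log2 scale of normalized counts with a pseudocount of 1. *SLC40A1* is between 0.79 and 1.05 in the controls and between -1.04 and -0.87 in the knockdown cultures, and *FTH1* (0.83) and *FTL* (0.93) stand out in control replicate 2 only.

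Ferritin genes have many processed copies in the genome, which can share reads. Of 1104 stretches of 100 bases in the *FTH1* reference transcript, 249 (22.6%) had an exact copy elsewhere in hg38, on 8 other chromosomes, against 26 of 772 (3.37%) in *FTL* and 0 in the other 8 members. The 2 *FTH1* pseudogenes listed in the table, *FTH1P3* and *FTH1P18*, held 38 counts over all 6 cultures, or 0.123% of the 30798 of *FTH1*, and *FTLP10* held 0. How reads that map to several places were counted is not given in the sources used here, so the *FTH1* level is uncertain to that extent. *BEST1*, on the opposite strand, covers 73.2% of the exon bases of the *FTH1* reference transcript and had 21 to 41 counts per culture. The strand setting of the counting is not given either.

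*NCOA4* (chr10:46005088-46030623, minus strand), the cargo receptor that takes ferritin to the lysosome, had 2839.7, 2867 and 2776 normalized counts after knockdown and 3271, 2651 and 3394 in the controls. Control replicate 2 was the lowest of all 6 cultures and the other controls were the highest. The means were 2827.5 ± 46.5 and 3105 ± 399 (SD, n = 3), with a log2 fold change of -0.14 (SE 0.10) that was not called. Without control replicate 2 it was -0.24 and was called.

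The genes of the iron sensors showed small differences, and none was called. *IREB2* (chr15:78437431-78501453, plus strand) had 3682, 4187 and 4016 normalized counts after knockdown and 4408, 3527 and 4493 in the controls. Its lowest and highest cultures were both controls, and the log2 fold change was -0.06 (SE 0.11), with a sign that changed in 3 of 15 alternative settings. Without control replicate 2 it was -0.17 and was not called. *ACO1* (chr9:32384603-32454769, plus strand), whose protein is an aconitase while it holds an iron-sulfur cluster, had 1171, 1057 and 1048 normalized counts after knockdown and 1054, 1050.5 and 1153 in the controls. The groups overlapped widely, and the log2 fold change was 0.01 (SE 0.09), with a sign that changed in 5 of 15 settings. The ratio of *IREB2* to *ACO1* counts was 3.65 ± 0.44 in the knockdown cultures and 3.81 ± 0.419 in the controls (SD, n = 3).

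*FBXL5* (chr4:15604381-15681679, minus strand) had 665, 611 and 703 normalized counts after knockdown and 878, 768 and 768 in the controls. Each knockdown culture was below each control. The means were 659.9 ± 46.1 and 804.5 ± 63.2 (SD, n = 3) and the log2 fold change was -0.29 (SE 0.11). It was not called with all cultures and was called without control replicate 2, at -0.32.

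Counted together, 1 of the 10 members was called lower, none was called higher and 9 were not called, where a call is an adjusted p under 0.05 in edgeR's quasi-likelihood test over all genes. Of all tested genes 4.64% were called lower and 5.40% higher. The groups did not overlap for 3 members, *SLC40A1*, *SLC11A2* and *FBXL5*, and for 32.2% of all tested genes. The median log2 fold change of the members was -0.18, against -0.02 over all tested genes. Below 0 were 9 of the 10 members and 7837 of the 14877 tested genes. These values were in view when the list was made.

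**Figure D3:**
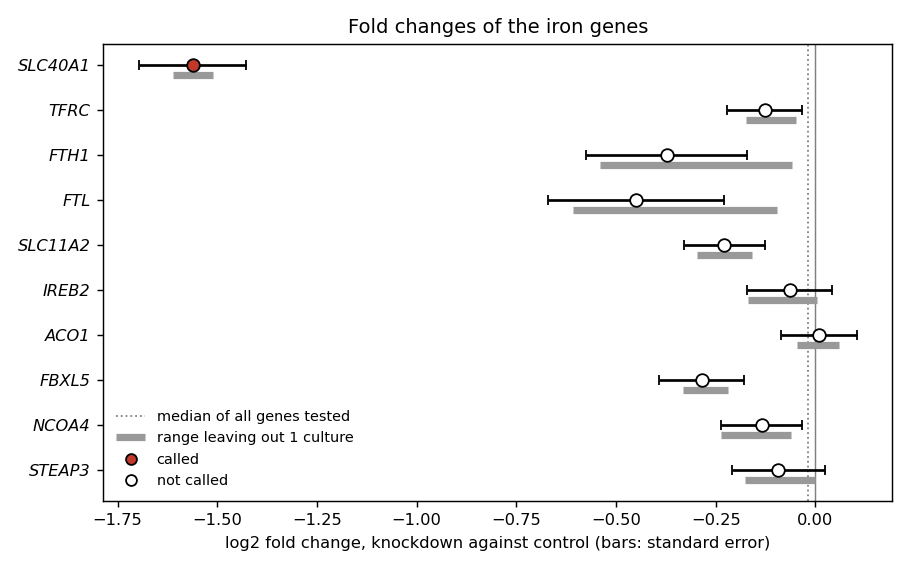
Log2 fold change of each member, knockdown minus control, with its standard error, and the range of the value over the leave-one-out fits. *SLC40A1* is at -1.56 and the other 9 lie between -0.45 and 0.01, with the widest ranges for *FTH1* (-0.54 to -0.06) and *FTL* (-0.61 to -0.10).

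Per length, the members covered a wide span of levels. In RPKM, counts scaled by the merged exon length and the library size, the ferritins were highest, with control levels of 217 ± 82.3 for *FTL* and 189 ± 65.3 for *FTH1* (SD, n = 3), which did not differ beyond their spread. *NCOA4* came next at 51.5 ± 6.41, followed by *IREB2* at 25.4 ± 3.19. *FBXL5* (11.3 ± 0.947), *STEAP3* (11 ± 1.20), *ACO1* (9.51 ± 0.436) and *TFRC* (9.35 ± 0.947) lay close together, and neighbours in this order overlapped within their spread. *SLC11A2* was at 7.57 ± 0.729 and *SLC40A1* was lowest at 5.82 ± 0.473. After knockdown *SLC40A1* was at 1.98 ± 0.0942 and still lowest, and the ferritins were still highest at 160 ± 8.34 (*FTL*) and 147 ± 6.78 (*FTH1*). The order depends on the length used: over the longest transcript, *TFRC* was at 23.6 and *FTH1* at 314 in the controls.

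**Figure D4:**
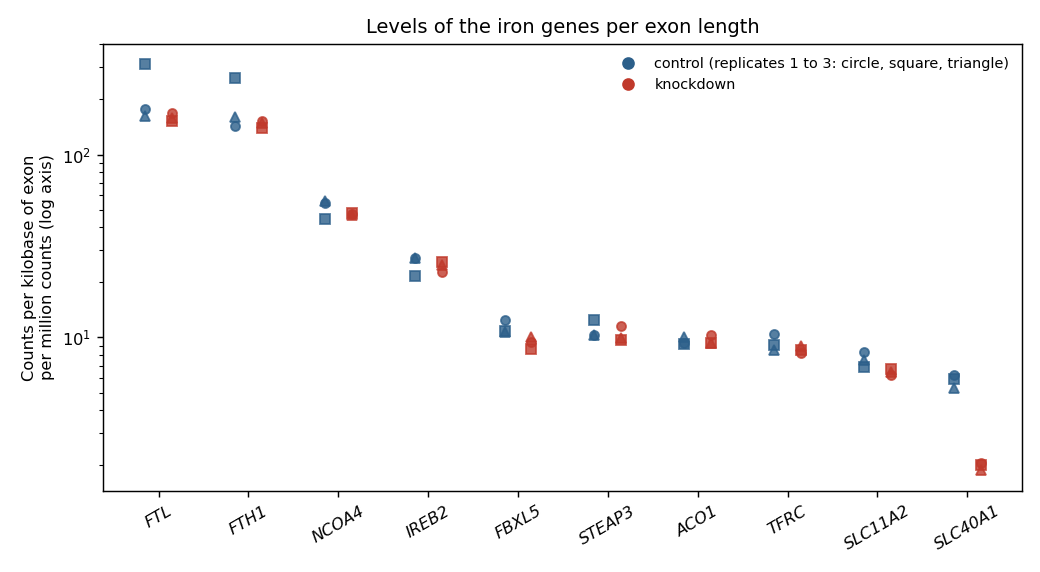
Level of each member in RPKM over merged exons (counts scaled by exon length and library size), on a log axis, with 1 point per culture (controls blue, knockdown red). The ferritins are the most abundant members in both groups, and *SLC40A1* is the least abundant, at 5.82 in the controls and 1.98 after knockdown.

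To set the members among the rest of iron handling, 95 other iron genes were read, of which 81 passed the filter. This list was chosen by function, also with earlier results of these data known, so its tests are no independent support. In this list 2 genes fell, 5 rose and 74 were not called in edgeR's quasi-likelihood test, so that 2.47% were called lower and 6.17% higher, against 4.64% and 5.40% of all tested genes. The median log2 fold change was -0.06, with 44 values below 0 and 37 above, against 7837 and 7040 of all tested genes. The groups did not overlap for 29 of the 81, among them the 7 called genes, and for 32.2% of all tested genes.

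The gene of the list that fell most was *HMOX1*, which encodes the inducible heme oxygenase that frees iron from heme. It had 174, 143 and 143 normalized counts after knockdown and 321, 385 and 351 in the controls. The means were 153 ± 17.7 and 352 ± 31.7 (SD, n = 3), and the log2 fold change was -1.20 (SE 0.14, edgeR adjusted p = 0.000559). It was called in 15 of 15 alternative settings, with adjusted p between 4.73e-10 and 0.00634. *HMOX1* was the 1 called gene among 17 tested genes of heme synthesis, transport and breakdown, where the median log2 fold change was -0.12. *PGRMC1* (-0.13) and *UROD* (-0.06), the most abundant of the others, were not called (edgeR adjusted p = 0.431 and 0.786).

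*NFE2L2* encodes NRF2, a transcription factor with known sites at *HMOX1*, *SLC40A1* and the ferritin genes, and was called lower. Whether its mRNA level bears on the levels of those genes was not tested. *NFE2L2* had 962, 1159 and 1054 normalized counts after knockdown and 1628.5, 1578 and 1329 in the controls. Every knockdown culture was below every control. The log2 fold change was -0.51 (SE 0.11, edgeR adjusted p = 0.0133), and the call was lost without knockdown replicate 1, knockdown replicate 3 or control replicate 1 (adjusted p = 0.0726, 0.0722 and 0.0613). *MTF1*, the metal-responsive transcription factor, rose from 595 ± 37.3 to 765 ± 15.8 normalized counts (SD, n = 3; log2 fold change 0.36, SE 0.10, edgeR adjusted p = 0.0426), a call lost without any of the knockdown cultures or control replicate 1 (adjusted p = 0.0781 to 0.173). *HIF1A* (-0.19) and *BACH1* (-0.16) were not called (edgeR adjusted p = 0.253 and 0.304). *HIF1A* was called in 1 of 15 alternative settings, without control replicate 2 (-0.29, edgeR adjusted p = 0.0175). Of 6 tested transcription factors of iron genes, 1 fell, 1 rose and 4 were not called, *HIF1A* and *BACH1* being the most abundant of those 4.

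Of 14877 tested genes 7040 had values above 0, as did all of 5 other mRNAs with a known iron-responsive element. The median log2 fold change of these 5 was 0.21. The most abundant that were not called, *CDC42BPA* (0.14), a kinase, and *PFN2* (0.08), an actin-binding profilin, had edgeR adjusted p = 0.398 and 0.630.

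**Figure D5:**
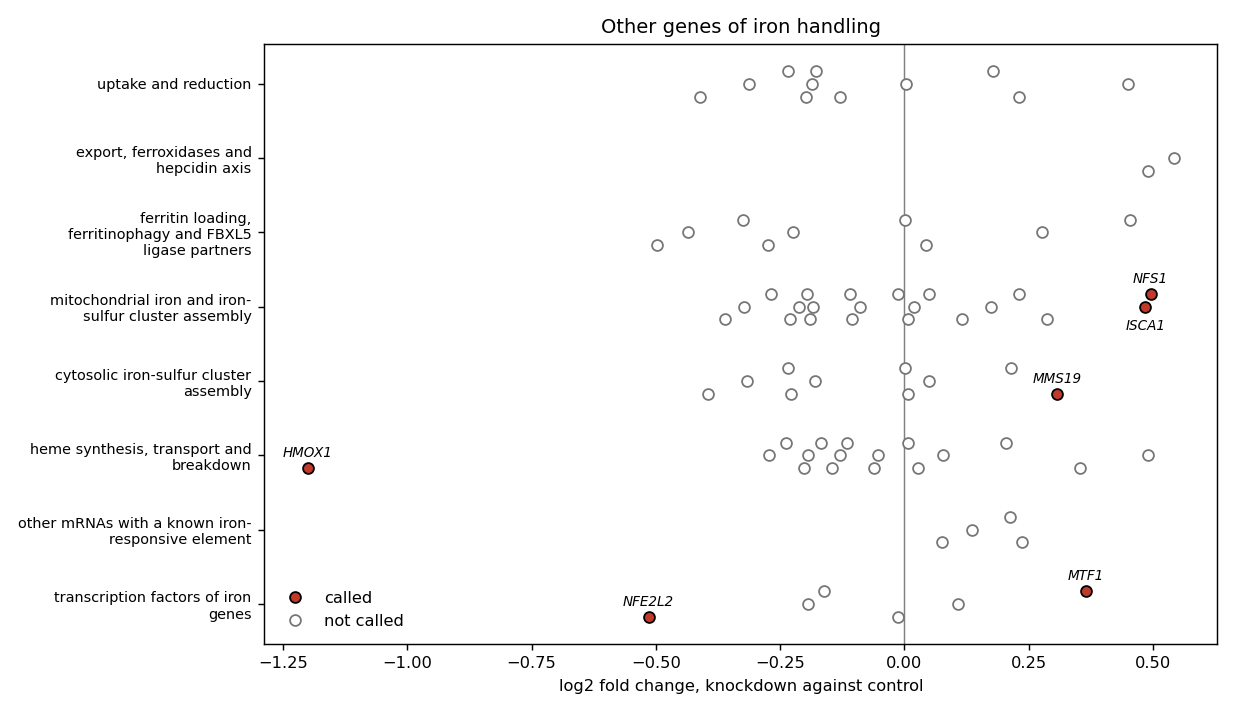
Log2 fold change, knockdown minus control, of tested genes of the wider iron list by group. Each point is 1 gene, filled and named where called. *HMOX1* (-1.20) and *NFE2L2* (-0.51) fell, *NFS1* (0.50), *ISCA1* (0.49), *MTF1* (0.36) and *MMS19* (0.31) rose, and the uncalled genes lie on both sides of 0 in most groups.

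Genes of iron-sulfur cluster assembly gave 3 of the calls. Among 21 tested mitochondrial genes, 2 rose and none fell. *NFS1*, the cysteine desulfurase, was at 446 ± 57.7 normalized counts after knockdown and 316 ± 32.3 in the controls (SD, n = 3; log2 fold change 0.50, SE 0.14, edgeR adjusted p = 0.0408). *ISCA1*, a late-acting assembly factor, was at 762.5 ± 74.1 and 545 ± 76.5 (0.49, SE 0.13, edgeR adjusted p = 0.0354). The median of the group was -0.09, and *HSPA9* (0.02) and *ABCB10* (-0.19) were not called (edgeR adjusted p = 0.925 and 0.169). Among 10 tested cytosolic genes, *MMS19*, which hands clusters to DNA repair enzymes, rose from 1152 ± 13.5 to 1426 ± 58.3 normalized counts (SD, n = 3; 0.31, SE 0.09, edgeR adjusted p = 0.0426), while *CIAO1* (0.01) and *GLRX3* (-0.18) were not called (edgeR adjusted p = 0.967 and 0.240). Each of these 3 rises lost its call without knockdown replicate 1, 2 or 3 or control replicate 1, with adjusted p of 0.083 to 0.169 for *NFS1*, 0.0834 to 0.177 for *ISCA1* and 0.102 to 0.158 for *MMS19*. *BOLA2* and its near-identical copy *BOLA2B* were listed at 0 in every culture, so *BOLA2* could not be read.

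No gene of the remaining groups was called in edgeR's test. Over all tested genes, 3996 of 14877 had an unadjusted p under 0.05. Of 17 genes of uptake and reduction 11 were tested, with 3 at an unadjusted p under 0.05 and a median of -0.18, and the most abundant, *SNX3* (-0.18) and *NDFIP1* (-0.13), had edgeR adjusted p = 0.280 and 0.412. Of 10 genes of ferritin loading, ferritinophagy and the FBXL5 ligase 9 were tested, with 5 at an unadjusted p under 0.05. These included *PCBP1*, which loads iron into ferritin, at -0.33 (edgeR adjusted p = 0.0707), and *PCBP2*, its relative, at 0.28 (edgeR adjusted p = 0.0678). Of 7 genes of export and the hepcidin axis only *BMP6* (0.49, edgeR adjusted p = 0.0694) and *TMPRSS6* (0.54, edgeR adjusted p = 0.171) were tested, both with an unadjusted p under 0.05. Hepcidin itself (*HAMP*), the ferroxidases that work with ferroportin (*CP*, *HEPH* and *HEPHL1*), transferrin (*TF*), *TFR2* and mitochondrial ferritin (*FTMT*) did not pass the filter on low counts.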

How the data were processed

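Counts of reads per gene from 6 HEK293 cultures were deposited by the authors as whole numbers without normalization. The submitters' processing notes list FastQC 0.11.9, Trim Galore 0.6.6, STAR 2.7.9a and featureCounts 2.0.1 with hg38. The gene annotation, the strand setting and the handling of multi-mapping reads are not given in the sources used here. No sequencing batch is named.

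The filter was filterByExpr and the scaling TMM. The groups were compared by the robust quasi-likelihood test of edgeR 4.0.16 in R 4.3.3, without a block, with Benjamini-Hochberg adjustment and a threshold of 0.05. The biological coefficient of variation was 12.4%. P values set the difference between the groups against the spread between these cultures, which is estimated in part over all genes. They do not cover other transfections, silencers or cell lines. An exact permutation test of 3 against 3 cannot go below 0.1. Normalized counts are scaled to the mean of the TMM-adjusted library sizes. The members and lists were chosen with earlier results of these data known. Named genes were the 10 members, the called genes of the wider iron list, the 2 most abundant uncalled genes of each of its groups and the ferritin pseudogenes. Other genes named were markers, untested genes, *BEST1* and *BOLA2B*, chosen after values were seen. Some single genes are not reported here but were kept in all counts and medians.

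Names were matched to GENCODE v44 on hg38, 23161 by symbol and 1307 by a RefSeq synonym, while 2017 had no match. Of the 95 listed genes, 6 were found under an older symbol. Elements were read from the GENCODE v44 transcript sequences, and exact copies of transcript stretches were searched in the hg38 assembly. Both were done in Python 3.11.15 (numpy 2.4.6, pandas 2.3.3), and plots were drawn with matplotlib 3.10.9. Alternatives were other scalings and filters, DESeq2 1.42.0, limma-voom (limma 3.58.1), a block for the replicate number, leaving out each culture, and a loess correction for GC content and length (span 0.3). On simulated data with 200 of 14730 genes changed by 1 on the log2 scale between knockdown and control, edgeR recovered 196 with 10 false calls. With none changed among 14725, it made 1. The changed genes were drawn from those with higher counts, and smaller changes were not simulated. The simulated cultures had no trends with GC content or length and none that stood apart, so the recovery does not cover those features.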

Additional observations from a re-analysis of the deposited data

How the results depend on the processing

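*HMOX1* kept its direction and its call in all 15 settings tried on the fit over all genes. The main counts were 690 genes lower and 804 higher, with 1 member lower and, in the wider iron list, 2 lower and 5 higher. Leaving out each culture in turn gave 233 to 1238 genes lower and 289 to 1274 higher, 1 to 4 members lower, and 1 to 4 genes of the wider list lower and 1 to 11 higher. Such fits keep 2 cultures in a group, with the spread pooled over both groups. Without knockdown replicate 1, 2 or 3 or control replicate 1, 233 to 294 genes were lower and 289 to 375 higher. Without control replicate 2, 1238 genes were lower and 1274 higher, 4 members were lower (*SLC40A1*, *SLC11A2*, *FBXL5* and *NCOA4*) and 11 genes of the wider list were higher. Without control replicate 3, 9 of the wider list were higher, and 1087 over all genes. With the correction for GC content and length, 1408 genes were lower and 1338 higher, with 2 members lower (*SLC40A1* and *FTL*) and 5 lower and 10 higher in the wider list. With this correction and the replicate block, 1121 genes were lower and 1109 higher, 2 members were lower and 8 of the wider list were higher. The DESeq2 Wald test gave 9 higher in the wider list and 918 over all genes. No filter gave 4 lower in the wider list and 848 over all genes, of 21131 tested. With Watson-Crick pairs alone, 2 members held a match to the element searched for, in place of 4. The cause of these shifts was not tested. Cultures with the same replicate number did not deviate together (correlations -0.187, -0.102 and -0.0438), so these numbers were not used as pairs. In the sample descriptions, knockdown replicates 1 to 3 are numbered 1, 4 and 5, and control replicates 1 to 3 are numbered 10, 11 and 1. Knockdown replicate 1 and control replicate 3, which share a number there, had a correlation of -0.00723. The block for the replicate number gave 619 genes lower and 714 higher, with 1 member lower. In the wider list it gave 2 lower and 4 higher, with *NFS1*, *MMS19* and *MTF1* no longer called (edgeR adjusted p = 0.0579, 0.142 and 0.114). *MMS19* was also not called with no filter (edgeR adjusted p = 0.0561). Log2 fold changes near 0 changed sign when single cultures were left out, from -0.0551 (without control replicate 2) to 0.104 for *HSPA9*, from -0.0336 (without knockdown replicate 3) to 0.0489 for *CIAO1*, which was at -0.0263 without control replicate 3, and from -0.176 to 0.0105 (without control replicate 3) for *UROD*. *CIAO1* was also below 0 with the GC and length correction, without (-0.0254) or with the block (-0.0253). At these counts, log2 differences of members near their standard errors (0.09 to 0.22) were not detectable.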
